A study of Mus musculus with 8 samples.

Results

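The transcripts of 10 genes that encode Polycomb Repressive Complex 2 (PRC2) were examined in mouse embryonic stem cells (ESCs) and in cells at day 5 of directed differentiation toward spinal motor neurons (SMNs). The genes were taken by symbol from a table of 36808 genes. They are the core subunits Suz12 and Eed, the alternative methyltransferases Ezh2 and Ezh1, the histone-binding chaperones Rbbp4 and Rbbp7, and the accessory factors Jarid2, Aebp2, Mtf2 and Phf19. Each symbol had 1 row, and all 10 genes were above 0 in all 8 RNA-seq libraries.

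There were 4 ESC libraries: wild-type E14 (129/Ola background), wild-type CJ7 (129/S), Suz12delta (C57/BL6) and Eednull (BALB/cR1). The other 4 libraries were day 5 cells of E14, Suz12GT (129/Ola), Suz12delta and Eednull. A Suz12GT ESC library was not analysed here. Suz12GT carries a gene trap that fuses part of SUZ12 to beta-galactosidase, Suz12delta makes a truncated SUZ12, and Eednull carries a point mutation in Eed. Each mutant is a single ESC line, and every mutant other than Suz12GT has another strain background than E14, so that allele, line and strain cannot be told apart. ESCs were grown with serum and LIF on irradiated mouse fibroblasts, which were removed by a short plating step. Differentiation was by withdrawal of LIF and treatment with retinoic acid and an agonist of hedgehog signalling. The CJ7 library was labelled as the wild-type control for the sequencing batch whose name the Eednull ESC column carries, and no other library was given a batch. Column names number the Eednull ESC and CJ7 libraries consecutively, apart from a separate consecutive series for all the others. What these numbers stand for was not given. Comparisons of Eednull or CJ7 ESCs with E14 ESCs, and of Eednull day 5 cells with Eednull ESCs, cross these series. Each condition was a single library. No test or replicate error can be given, and the only gauge of spread between wild-type ESCs is the difference between E14 and CJ7, which differ in line and strain, and of which only CJ7 was given a batch.

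PRC2 adds methyl groups to lysine 27 of histone H3, a mark of silenced developmental genes. EZH2 or EZH1 is the catalytic subunit and needs EED, which reads the mark and stimulates the enzyme, and SUZ12, the scaffold that holds the complex together. RBBP4 and RBBP7 bind histones and also serve in other chromatin complexes. The core joins accessory factors in classes that exclude each other: MTF2 and PHF19, Polycomb-like proteins that bind unmethylated CpG-rich DNA, define PRC2.1, and JARID2 and AEBP2 define PRC2.2. EZH2 is typical of dividing cells, whereas EZH1 persists in cells that have left the cell cycle.

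Values are FPKM, fragments scaled to transcript length and to the mapped total of the library, so they are per length and may be compared between genes. Ratios between libraries are log2 of FPKM + 0.1, and a gene was counted as higher or lower when 2-fold apart. Beside the counts of members from the deposited values stands the percent of all tested genes that were called in the same direction. Ratios of genes within a library do not depend on how libraries were scaled. Read depth is unknown, because the low FPKM values did not fall into steps of whole reads. Between libraries, the median gene differed: scaling factors by the median of ratios ran from 0.844 in Suz12delta ESCs to 1.17 in Suz12delta day 5 cells. Pluripotency genes were high in ESCs (8 genes, summed 508 to 1190.2 FPKM) and near 0 at day 5 (1.29 to 20.0 FPKM). Summed neuron and motor neuron markers were 396 FPKM in E14 and 532 FPKM in Suz12GT at day 5, against 24.4 FPKM in Suz12delta and 23.3 FPKM in Eednull, with Tubb3 listed at 0 in every library. In Suz12GT against E14, 5 of 9 tested markers were higher and 4 lower. Those past 2-fold were Stmn2 (log2 ratio 1.002), Olig2 (-1.06) and Pax6 (-1.41), so the higher sum does not hold for each marker. The ESC sums, 43.0 to 88.7 FPKM, were above those of Suz12delta and Eednull at day 5. Most of each ESC sum was Stmn2, at 39.9 to 75.7 FPKM. Fibroblast markers were above 0 in all ESC libraries. Their sum was 102 FPKM in E14, 125 FPKM in CJ7, 282 FPKM in Eednull and 584 FPKM in Suz12delta ESCs. In these bulk samples, fewer cells of a type and less RNA per cell cannot be told apart.

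**Figure D1:**
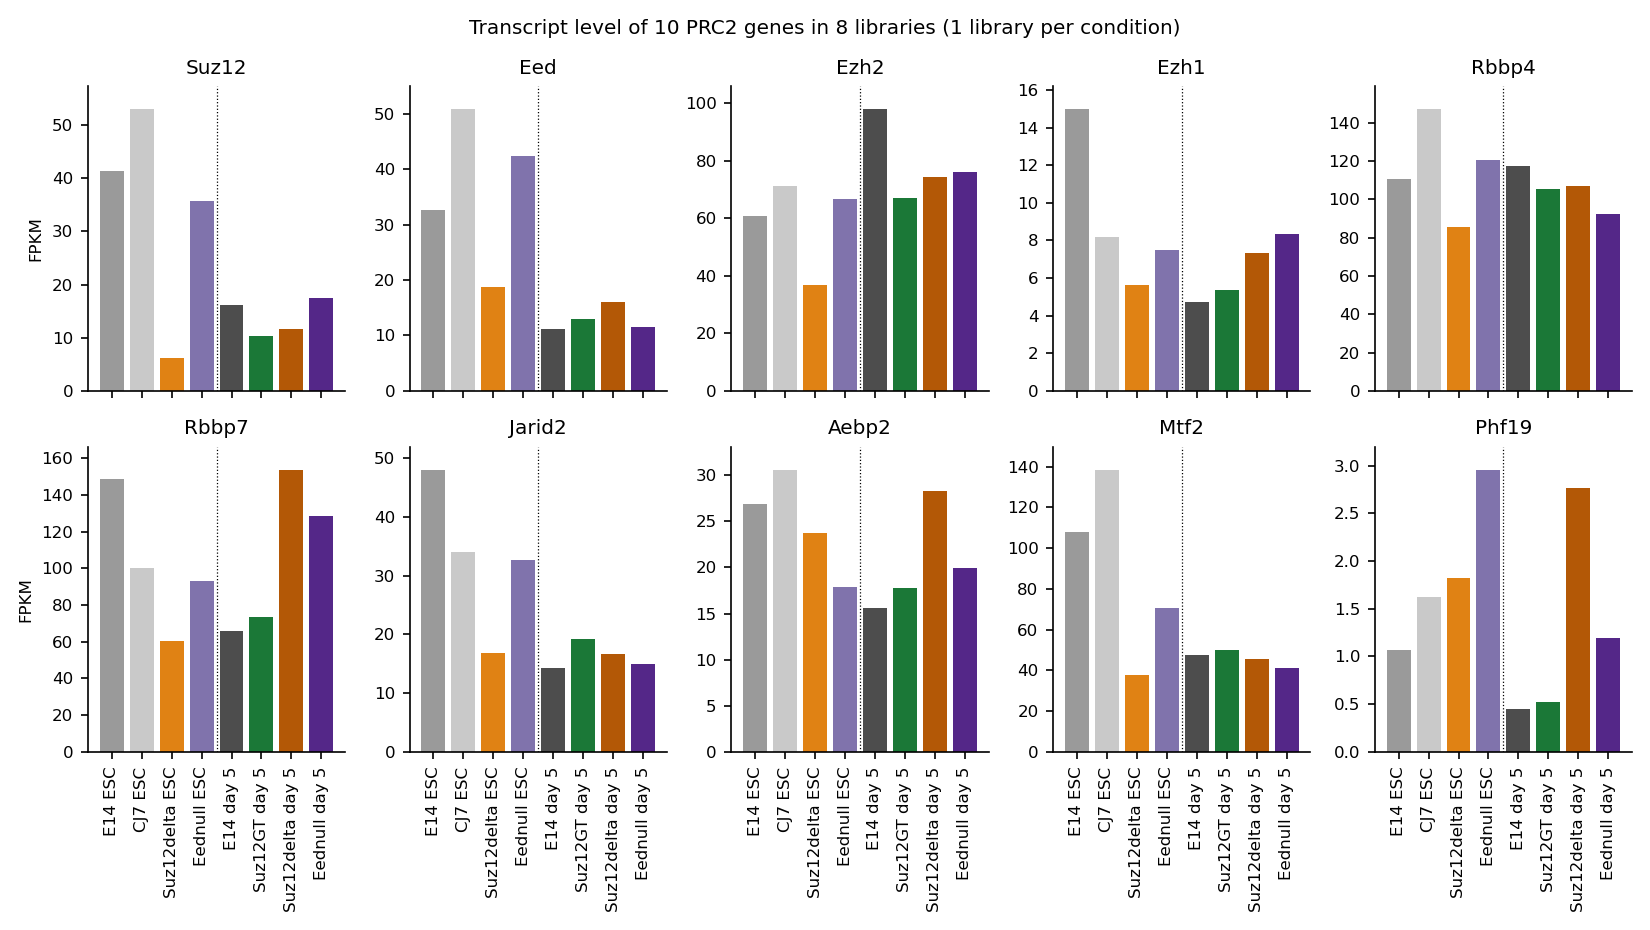
FPKM (y axis, linear from 0, scaled separately for each gene) of the 10 PRC2 genes in the 8 libraries. Each bar is 1 library, with ESCs left and day 5 cells right of the dotted line. Suz12 was lowest in Suz12delta ESCs at 6.21 FPKM, Ezh2 was highest in E14 day 5 cells at 98.2 FPKM, and Phf19 stayed at or below 2.96 FPKM.

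The mutated genes were examined in every library before the other subunits. Suz12 (ENSMUSG00000017548; chromosome 11, 79806608 to 79847625 on the plus strand of NCBI build 37) was at 41.3 FPKM in E14, 53.1 FPKM in CJ7, 35.7 FPKM in Eednull and 6.21 FPKM in Suz12delta ESCs. At day 5 it was at 16.2 FPKM in E14, 17.6 FPKM in Eednull, 10.3 FPKM in Suz12GT and 11.6 FPKM in Suz12delta cells. Suz12delta ESCs stood apart from the other 3 ESC libraries, and at day 5 both Suz12 mutants were below both lines with an intact Suz12 gene. The log2 ratio was -2.71 for Suz12delta against E14 ESCs, where 2.14% of all tested genes lay lower, and -3.08 against CJ7 ESCs. The day 5 ratios were smaller, -0.65 for Suz12GT and -0.48 for Suz12delta against E14. These values count all reads over the gene, so they do not show which part of Suz12 was transcribed in the mutants.

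Eed (ENSMUSG00000030619; chromosome 7, 97103166 to 97129493, minus strand) was at 32.7 FPKM in E14, 50.9 FPKM in CJ7, 42.4 FPKM in Eednull and 18.8 FPKM in Suz12delta ESCs. At day 5 the values were 11.1, 12.9, 15.9 and 11.5 FPKM in E14, Suz12GT, Suz12delta and Eednull. Eednull cells held Eed transcript near the wild-type level at both stages, with log2 ratios to E14 of 0.37 in ESCs and 0.05 at day 5, and of -0.26 to CJ7 ESCs. A point mutation need not alter the transcript level, so Eed does not check that label. Eed was the only member whose day 5 libraries were all below its ESC libraries, 1 of 10 members against 6.65% of 27963 genes. With either scaling of the libraries Jarid2 joined it, which gave 2 of 10, and the share of all genes was not computed for these scalings.

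The ratio of Suz12 to Eed transcript within a library separated the Suz12 mutants from the rest. It was 1.26 in E14, 1.04 in CJ7 and 0.842 in Eednull ESCs, and 1.46 in E14 and 1.53 in Eednull day 5 cells. In the Suz12 mutants it was 0.330 in Suz12delta ESCs, 0.727 in Suz12delta day 5 cells and 0.801 in Suz12GT day 5 cells. All 3 Suz12 mutant libraries were thus below all 5 others, although Suz12GT day 5 and Eednull ESCs were close. Between the wild-type ESC lines the ratio differed 1.21-fold, and between Suz12delta and E14 ESCs 3.83-fold. This separation was seen with Eed as the denominator. With Ezh2 as the denominator the ratio was 0.154 in Suz12GT, 0.156 in Suz12delta and 0.165 in E14 day 5 cells. Suz12delta ESCs, at 0.168, were above E14 day 5 cells, so the Suz12 mutants were not set apart. Eed itself was above E14 at day 5, with log2 ratios of 0.22 in Suz12GT and 0.52 in Suz12delta. The promoter windows of Suz12 and Eed are shown because the Suz12 to Eed ratio is made of their transcripts. Each holds 250 bases before to 50 bases after the gene start, from RefSeq on GRCm38.p6, 5′ to 3′ along the gene. The Suz12 window is chr11:79992856-79993155 on the plus strand and the Eed window is chr7:89980927-89981226 on the minus strand. Capitals mark matches to E2F-type letters, described with the catalytic subunits.
Suz12: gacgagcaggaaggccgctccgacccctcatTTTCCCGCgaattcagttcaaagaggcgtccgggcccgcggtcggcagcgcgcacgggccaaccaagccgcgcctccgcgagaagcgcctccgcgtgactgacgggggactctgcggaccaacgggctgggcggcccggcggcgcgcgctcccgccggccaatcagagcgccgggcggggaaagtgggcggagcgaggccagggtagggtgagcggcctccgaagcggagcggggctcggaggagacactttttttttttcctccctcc
Eed: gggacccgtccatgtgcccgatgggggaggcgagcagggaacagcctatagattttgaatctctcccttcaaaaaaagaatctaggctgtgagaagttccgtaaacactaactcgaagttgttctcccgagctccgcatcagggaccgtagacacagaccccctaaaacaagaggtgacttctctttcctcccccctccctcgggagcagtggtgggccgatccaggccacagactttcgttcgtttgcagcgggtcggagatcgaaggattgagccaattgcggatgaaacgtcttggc
The Suz12 window holds 41 CpG dinucleotides and the Eed window 17, against a median of 7 over 32851 RefSeq windows.

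Ezh2 was the main methyltransferase transcript in every library. Ezh2 (ENSMUSG00000029687; chromosome 6, 47480273 to 47545340, minus strand) was at 60.8 FPKM in E14, 71.4 FPKM in CJ7, 66.7 FPKM in Eednull and 37.02 FPKM in Suz12delta ESCs. Day 5 values were 98.2 FPKM in E14, 67.1 FPKM in Suz12GT, 74.3 FPKM in Suz12delta and 76.0 FPKM in Eednull cells. E14 day 5 was the highest library and Suz12delta ESC the lowest, and the ESC and day 5 ranges overlapped. Ezh1 (ENSMUSG00000006920; chromosome 11, 101052429 to 101087777, minus strand) was at 15.0 FPKM in E14, 8.16 FPKM in CJ7, 7.47 FPKM in Eednull and 5.65 FPKM in Suz12delta ESCs. At day 5 it was at 4.71 FPKM in E14, 5.34 FPKM in Suz12GT, 7.34 FPKM in Suz12delta and 8.32 FPKM in Eednull cells. E14 thus held both the highest Ezh1 value, in ESCs, and the lowest, at day 5.

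Ezh1 made up 19.8% of the summed Ezh1 and Ezh2 FPKM in E14 ESCs, but 10.3% in CJ7, 13.2% in Suz12delta and 10.1% in Eednull ESCs. E14 was the library that stood apart. Suz12delta lay between the 2 wild-type lines, and Eednull lay just below CJ7. At day 5 the share was 4.57% in E14, 7.37% in Suz12GT, 8.99% in Suz12delta and 9.86% in Eednull cells. All 3 mutants were above E14, and all day 5 shares were below all ESC shares, with Eednull day 5 only just below Eednull ESCs. In terms of Ezh2 over Ezh1, the ratio went from 4.05 to 20.9 in E14, from 6.56 to 10.1 in Suz12delta and from 8.93 to 9.14 in Eednull. The ratio of Ezh1 to Ezh2 was 5.15-fold lower at day 5 than in ESCs in E14, 1.54-fold lower in Suz12delta and 1.02-fold lower in Eednull. Taking CJ7 ESCs as the starting point, the wild-type difference was 2.38-fold, across lines. At day 5 the ratio was 1.66-fold higher in Suz12GT, 2.06-fold higher in Suz12delta and 2.28-fold higher in Eednull than in E14. Of these, only the Eednull difference was larger than the 2.16-fold difference between the wild-type ESC lines. No second wild-type library was available at day 5 to gauge the spread there.

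Ezh2 and Ezh1 share no stretch of 30 bases in their annotated transcripts, so reads of either are unlikely to have been counted for the other. Their promoter windows are shown because the transcripts differed in opposite directions between E14 ESCs and day 5 cells. The Ezh2 window is chr6:47594981-47595280 and the Ezh1 window chr11:101226414-101226713, both on the minus strand of GRCm38.p6 and from RefSeq. The E2F factors, which act on cell cycle genes, are known to bind 8-base sites, and 4 such strings were searched on both strands: TTTCCCGC, TTTCGCGC, TTTGCCGC and TTTGGCGC. Matches are in capitals.
Ezh2: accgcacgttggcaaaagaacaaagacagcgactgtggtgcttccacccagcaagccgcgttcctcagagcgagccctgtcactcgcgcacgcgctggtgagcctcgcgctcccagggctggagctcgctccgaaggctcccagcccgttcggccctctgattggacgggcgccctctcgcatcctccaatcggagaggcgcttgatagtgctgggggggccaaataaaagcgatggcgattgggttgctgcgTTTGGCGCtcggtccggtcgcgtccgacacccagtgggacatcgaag
Ezh1: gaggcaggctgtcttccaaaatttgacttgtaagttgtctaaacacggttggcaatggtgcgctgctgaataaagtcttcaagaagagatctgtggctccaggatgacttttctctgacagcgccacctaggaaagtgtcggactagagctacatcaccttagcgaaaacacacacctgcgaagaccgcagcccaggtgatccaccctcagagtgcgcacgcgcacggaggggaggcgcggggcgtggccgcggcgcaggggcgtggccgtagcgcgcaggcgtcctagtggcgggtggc
The Ezh2 match begins 3 bases after the gene start, and the Ezh1 window holds none of these letters, which says nothing about sites elsewhere. RefSeq windows were found for 10 of 10 members, 14 windows in all, and 3 held a match, in Suz12, Ezh2 and Phf19. The share was 2.26% over all 32851 windows. Every string searched contains a CpG, and the windows with a match hold 41, 31 and 38 CpG dinucleotides, against a median of 7. The share among windows of like CpG content was not computed, so these matches cannot be read as an enrichment. A match is a description of letters and not a bound site.

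**Figure D2:**
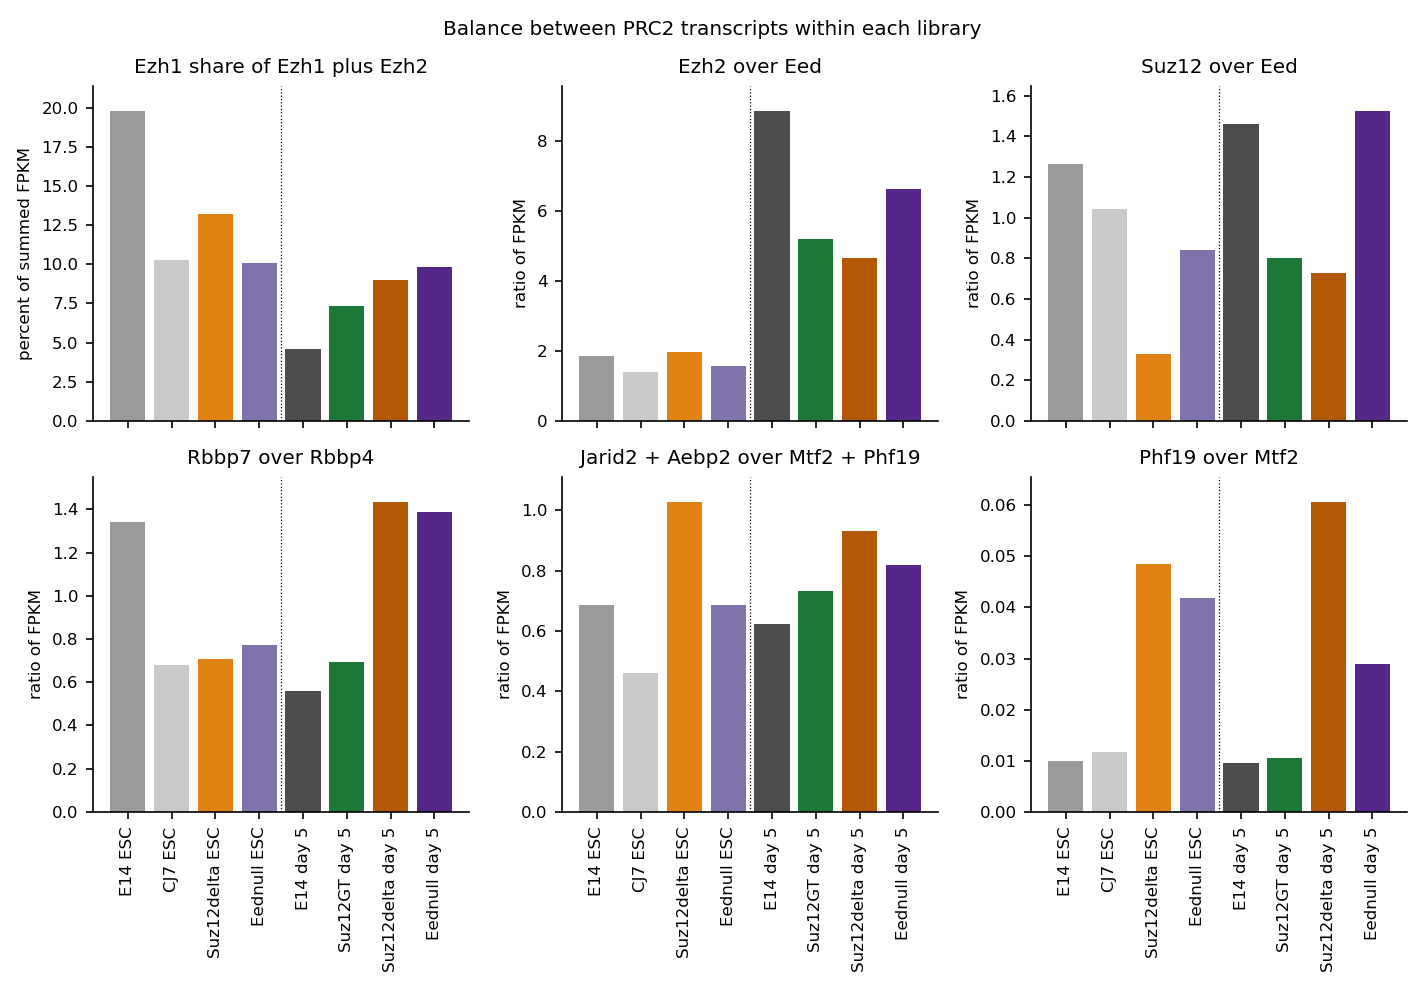
Balances between PRC2 transcripts within each library, as percent of summed FPKM for Ezh1 and as ratios of FPKM elsewhere (y axes linear from 0). Each bar is 1 library, with ESCs left and day 5 cells right of the dotted line. The Ezh1 share was 19.8% in E14 ESCs and 4.57% in E14 day 5 cells, Ezh2 over Eed was 1.40 to 1.97 in ESCs and 4.66 to 8.85 at day 5, and Phf19 over Mtf2 was 0.0289 or more in the Suz12delta and Eednull libraries and 0.0117 or less in the others.

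The balance of Ezh2 to Eed differed by stage in the 3 lines that had both stages. Ezh2 over Eed was 1.86 in E14, 1.40 in CJ7, 1.97 in Suz12delta and 1.57 in Eednull ESCs. At day 5 it was 8.85 in E14, 5.20 in Suz12GT, 4.66 in Suz12delta and 6.61 in Eednull cells. The stages did not overlap, and E14 day 5 was the highest. Within lines the ratio was 4.76-fold higher at day 5 in E14, 4.20-fold higher in Eednull and 2.37-fold higher in Suz12delta, against a 1.33-fold difference between the wild-type ESC lines. In E14 and Eednull lower Eed made the larger part, with log2 ratios of -1.55 and -1.87, beside 0.69 and 0.19 for Ezh2. In Suz12delta the deposited values were -0.24 for Eed and 1.002 for Ezh2, but -0.71 and 0.53 with median of ratios scaling. Suz12 over Ezh2 was 0.679 in E14, 0.743 in CJ7 and 0.535 in Eednull ESCs, and 0.165, 0.154, 0.156 and 0.231 in E14, Suz12GT, Suz12delta and Eednull at day 5. Suz12delta ESCs, at 0.168, lay within the range of the day 5 libraries. Ezh1 over Eed showed no such split by stage, with 0.160 to 0.459 in ESCs and 0.413 to 0.723 at day 5.

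Genes of the cell cycle were set beside Ezh2. The summed FPKM of 14 proliferation genes was 1306 in E14, 1383 in CJ7, 1368 in Eednull and 649 in Suz12delta ESCs, and 892, 655, 972 and 932 in E14, Suz12GT, Suz12delta and Eednull at day 5. Both Ezh2 and this list were lowest among ESCs in Suz12delta and lowest at day 5 in Suz12GT. All 14 proliferation genes were lower in Suz12delta than in E14 ESCs, with a median log2 ratio of -1.02, and all 14 were lower in Suz12GT than in E14 at day 5, with a median of -0.34. In E14 the list and Ezh2 lay on opposite sides of 0, where the list median at day 5 against ESCs was -0.59 and the Ezh2 ratio was 0.69. The part of proliferation in the Ezh2 values was not tested.

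For each methyltransferase the 5 genes with the most similar profile were taken by Pearson's r of log2 FPKM over the same 8 libraries among 13279 genes that reached 5 FPKM. For Ezh2 these were Pbk (r = 0.99), a mitotic kinase, Ift52 (0.98), Pus3 (0.98), Cbx5 (0.97), which encodes the heterochromatin protein HP1 alpha, and Hnrnpa2b1 (0.96), an RNA-binding protein. For Ezh1 they were Gpbp1l1 (r = 0.97), Myh14 (0.97), Gm11974 (0.97), Gpat2 (0.96) and Gm8615 (0.96). With 8 libraries and this many genes, such values describe likeness and carry no test, and all profiles share the scaling of the libraries.

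The chaperone Rbbp4 was the steadiest member, with a 1.73-fold span over the 8 libraries. Rbbp4 (ENSMUSG00000057236; chromosome 4, 128984344 to 129012614, minus strand) was at 111 FPKM in E14, 147 FPKM in CJ7, 85.3 FPKM in Suz12delta and 121 FPKM in Eednull ESCs, and at 117, 105, 107 and 92.3 FPKM in E14, Suz12GT, Suz12delta and Eednull day 5 cells. Its paralog Rbbp7 varied more. Rbbp7 (ENSMUSG00000031353; chromosome X, 159198334 to 159217024, plus strand) was at 148 FPKM in E14, 100.1 FPKM in CJ7, 60.2 FPKM in Suz12delta and 93.1 FPKM in Eednull ESCs. Day 5 cells had 66.0 FPKM in E14 and 73.3 FPKM in Suz12GT, but 154 FPKM in Suz12delta and 128 FPKM in Eednull cells. The stages overlapped, and the order of the lines turned over between them.

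Rbbp7 over Rbbp4 was 1.34 in E14, 0.679 in CJ7, 0.706 in Suz12delta and 0.771 in Eednull ESCs. At day 5 the ratio was 0.562 in E14, 0.695 in Suz12GT, 1.44 in Suz12delta and 1.39 in Eednull cells. Rbbp7 exceeded Rbbp4 in 3 libraries, E14 ESCs and the Suz12delta and Eednull day 5 cells. Against E14 at day 5 the ratio was 2.56-fold higher in Suz12delta and 2.47-fold higher in Eednull, and 1.24-fold higher in Suz12GT. The wild-type ESC lines differed by 1.97-fold in this ratio, so that the mutant ESCs, 1.90-fold and 1.74-fold below E14, were no farther from E14 than CJ7 was. Against CJ7 the mutant ESCs were 1.04-fold and 1.14-fold higher. The paralogs share no stretch of 30 bases in their annotated transcripts.

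Among the accessory factors, Mtf2 was the most abundant in every library and Phf19 the least. Mtf2 (ENSMUSG00000029267; chromosome 5, 108494693 to 108538023, plus strand) was at 108 FPKM in E14, 139 FPKM in CJ7, 70.8 FPKM in Eednull and 37.5 FPKM in Suz12delta ESCs. At day 5 it lay between 41.4 FPKM in Eednull and 50.01 FPKM in Suz12GT, with 47.4 FPKM in E14 and 45.5 FPKM in Suz12delta. Suz12delta ESCs were below every day 5 library, and the other 3 ESC libraries were above them. Jarid2 (ENSMUSG00000038518; chromosome 13, 44824843 to 45017012, plus strand), which helps recruit PRC2, was at 48.1 FPKM in E14, 34.1 FPKM in CJ7, 32.6 FPKM in Eednull and 16.8 FPKM in Suz12delta ESCs. It was at 14.2, 19.3, 16.7 and 14.9 FPKM in E14, Suz12GT, Suz12delta and Eednull at day 5, so Suz12delta ESCs lay within the day 5 range. Aebp2 (ENSMUSG00000030232; chromosome 6, 140570970 to 140626993, plus strand), a zinc finger protein, varied only 1.96-fold. It was at 26.8 FPKM in E14, 30.6 FPKM in CJ7, 23.7 FPKM in Suz12delta and 17.9 FPKM in Eednull ESCs, and at 15.6, 17.8, 28.3 and 19.9 FPKM in E14, Suz12GT, Suz12delta and Eednull at day 5.

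The PRC2.2 to PRC2.1 balance, the sum of Jarid2 and Aebp2 over the sum of Mtf2 and Phf19, was 0.686 in E14, 0.461 in CJ7, 0.685 in Eednull and 1.03 in Suz12delta ESCs. Among day 5 cells it was 0.622 in E14, 0.734 in Suz12GT, 0.933 in Suz12delta and 0.819 in Eednull cells. The Suz12delta library was the highest at each stage, 1.5-fold above E14 both times, and the wild-type ESC lines differed by 1.49-fold. This order rested on Aebp2. For Jarid2 over Mtf2 alone the ratio was 0.447 in Suz12delta and 0.444 in E14 ESCs, with Eednull highest at 0.461, and at day 5 Suz12GT was highest at 0.386, with Suz12delta at 0.368. Within PRC2.2 the partners differed: Jarid2 over Aebp2 was 1.79 in E14 and 1.82 in Eednull ESCs, 1.11 in CJ7 ESCs and 0.707 in Suz12delta ESCs. At day 5 this ratio was 0.912, 1.08, 0.592 and 0.749 in E14, Suz12GT, Suz12delta and Eednull. Suz12delta again had the lowest value at each stage.

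Phf19 was the accessory factor whose ratio to Mtf2 set the Suz12delta and Eednull libraries apart across both stages. Its own FPKM did so only within each stage. Phf19 (ENSMUSG00000026873; chromosome 2, 34749277 to 34769546, minus strand) was at 1.07 FPKM in E14, 1.62 FPKM in CJ7, 1.82 FPKM in Suz12delta and 2.96 FPKM in Eednull ESCs. Day 5 values were 0.453 FPKM in E14, 0.527 FPKM in Suz12GT, 2.76 FPKM in Suz12delta and 1.2 FPKM in Eednull cells. Within each stage the Suz12delta and Eednull values were above the others, though Suz12delta ESCs were close to CJ7 ESCs. Across stages, the 4 libraries of Suz12delta and Eednull held 4 of the 5 highest values, with CJ7 ESCs above Eednull day 5 cells. Phf19 over Mtf2 was 0.00992 in E14 ESCs, 0.0117 in CJ7 ESCs, 0.00956 in E14 day 5 and 0.0105 in Suz12GT day 5 cells. It was 0.0485 in Suz12delta ESCs, 0.0418 in Eednull ESCs, 0.0607 in Suz12delta day 5 and 0.0289 in Eednull day 5 cells. The Suz12delta and Eednull libraries were all above the other 4, a grouping noticed after the values were seen. In Suz12delta against E14 ESCs more of this came from Mtf2, which was 2.88-fold lower, than from Phf19, which was 1.64-fold higher, and against CJ7 the values were 3.69-fold and 1.11-fold. In Eednull ESCs Mtf2 was 1.53-fold lower and Phf19 2.61-fold higher than in E14, but 1.96-fold and 1.77-fold against CJ7. At day 5 more came from Phf19. It was 5.17-fold higher than in E14 in Suz12delta and 2.34-fold in Eednull, with Mtf2 1.04-fold and 1.15-fold lower. Summed fibroblast markers were also highest in the Suz12delta and Eednull libraries at each stage. They were 584 and 282 FPKM against 102 and 125 FPKM in ESCs, and 129 and 68.1 FPKM against 5.45 and 19.7 FPKM at day 5, and their part in the ratio was not tested. Against E14 the ratio was 4.89-fold and 4.22-fold higher in Suz12delta and Eednull ESCs and 6.35-fold and 3.02-fold higher at day 5, whereas CJ7 differed from E14 by 1.18-fold and Suz12GT by 1.10-fold. Phf19 is low, and with the depth unknown its counting error cannot be given. The Phf19 promoter window, chr2:34913927-34914226 on the minus strand of GRCm38.p6 from RefSeq, is shown because this transcript differed most between lines at day 5, with its E2F-type match on the opposite strand in capitals.
Phf19: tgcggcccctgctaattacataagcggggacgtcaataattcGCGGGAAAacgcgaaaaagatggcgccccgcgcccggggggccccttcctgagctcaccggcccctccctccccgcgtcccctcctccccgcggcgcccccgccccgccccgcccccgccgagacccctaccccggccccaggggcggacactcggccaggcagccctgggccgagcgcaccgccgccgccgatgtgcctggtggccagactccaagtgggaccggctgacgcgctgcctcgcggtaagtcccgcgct
The window holds 38 CpG dinucleotides.

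Which subunits differed between ESC lines was then examined, with E14 as the common control of all 3 comparisons. In Suz12delta ESCs 5 of 10 members were 2-fold lower than in E14, against 22.8% of 21980 tested genes called lower. They were Suz12 (-2.71), Mtf2 (-1.52), Jarid2 (-1.51), Ezh1 (-1.39) and Rbbp7 (-1.30). As deposited no member was 2-fold higher, a direction in which 18% of genes were called, and the member median of -1.05 compares with -0.28 over all genes tested. With the libraries scaled by the median of ratios the member median was -0.70, beside 0.06 over all genes. Then 4 members were called lower, since Rbbp7 no longer was, against 14.3% of genes. Phf19, at 0.71 as deposited, was then called higher, at 1.04, and at 1.06 with scaling to the 75th percentile. In that direction 23.3% and 23.5% of genes were called with these scalings. Against CJ7 ESCs 4 members were called lower, beside 24% of genes lower and 21.1% higher: Suz12, Mtf2 (-1.88), Eed (-1.43) and Jarid2 (-1.02). Suz12, Mtf2 and Jarid2 were called against each wild-type line, and Ezh1 and Rbbp7 only against E14. The Jarid2 call against CJ7 was lost with either scaling, at -0.87 for the 75th percentile and -0.89 for the median of ratios. In the same comparison with E14, fibroblast markers were 2-fold higher for 12 of 12 genes (median 2.25), and pluripotency genes were lower for 8 of 8, 6 of them 2-fold (median -1.50). The part of these differences in the member values was not tested.

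In Eednull ESCs 1 of 10 members was 2-fold higher than in E14, Phf19 (1.38), against 22.4% of 24280 genes. None was called lower, a direction holding 11.9% of genes, although Ezh1 lay at -0.998, just inside the limit. The member median was -0.39 and that of all genes 0.04. Against CJ7 ESCs, the wild-type library labelled for its batch, no member was called, beside 20.5% of genes called higher and 10.7% lower, and Phf19 was at 0.83. Mtf2, at -0.97 as deposited, was called lower there with either scaling, at -1.02 and -1.08, beside 11.3% and 11.9% of genes called lower. The Phf19 call against E14 was also lost with a pseudocount of 1. In the comparison of the 2 wild-type lines themselves, no member was called in CJ7 against E14, where 15.7% of 23141 genes were called higher and 14.7% lower. Fibroblast markers were higher in Eednull than in E14 ESCs for 12 of 12 genes, 4 of them 2-fold.

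**Figure D3:**
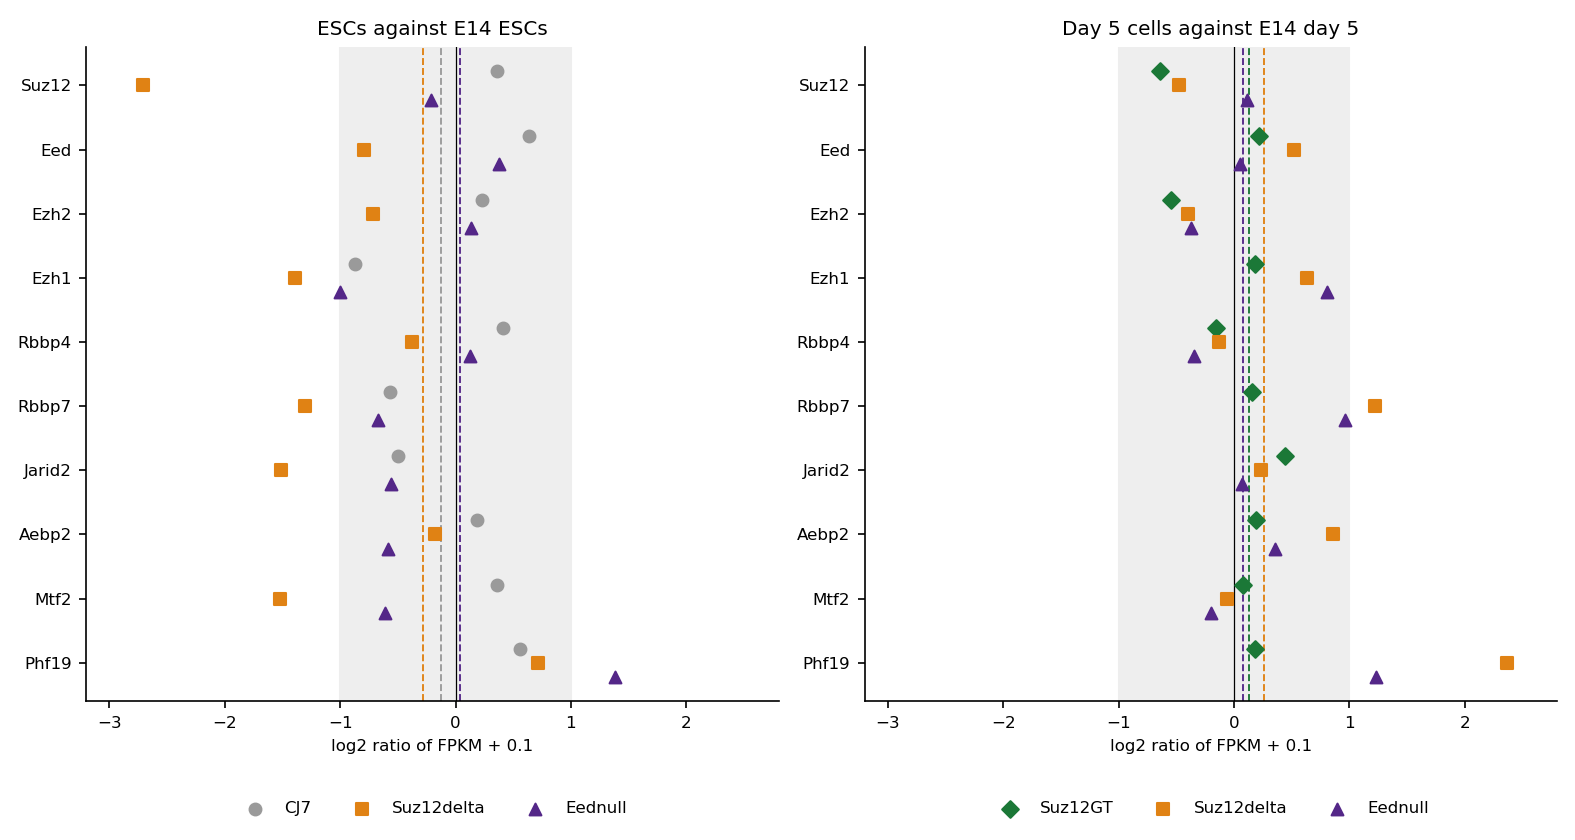
Log2 ratios of FPKM + 0.1 to E14 for the 10 members in ESCs (left) and at day 5 (right). Each symbol is 1 library against E14, the grey band is within 2-fold, and dashed lines in the same colours are the medians of all genes tested. In Suz12delta ESCs 5 members lay left of the band, with Suz12 at -2.71, and at day 5 Phf19 lay at 2.37 in Suz12delta and 1.23 in Eednull cells.

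At day 5, again with E14 as the common control, the members of Suz12GT lay close to E14. No member was 2-fold apart, where 16.8% of 20840 genes were called higher and 4.4% lower, and the member median of 0.17 was close to the 0.13 of all genes. The lowest were Suz12 (-0.65) and Ezh2 (-0.55), below which lay 7.74% and 9.7% of genes. In Suz12delta cells 2 of 10 members were called higher, Phf19 (2.37) and Rbbp7 (1.22), against 26.6% of 22069 genes, and none was called lower, against 9.52%. With median of ratios scaling Rbbp7 was at 0.98, so that 1 call was left, beside 23% of genes called higher. In Eednull cells 1 of 10 members, Phf19 (1.23), was called higher, against 21.6% of 21442 genes, and none lower, against 11.3%. Rbbp7 followed at 0.96 and Ezh1 at 0.81, and the Phf19 call in Eednull was lost with a pseudocount of 1. None of these counts was above the share of all genes called. Ezh2 was lower than in E14 in all 3 mutants, at -0.55, -0.40 and -0.37, and Ezh1 was higher in all 3, at 0.18, 0.63 and 0.81, none of them 2-fold and with 1 E14 library common to all. Fibroblast markers at day 5 were higher than in E14 for 12 of 12 genes in Suz12delta (sum 129 against 5.45 FPKM) and in Eednull (68.1 FPKM). In Suz12GT they were higher for 10 of 11 tested genes (19.7 FPKM). Their part in the member values was not tested.

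Day 5 cells were then compared with ESCs of the same line. In E14, 7 of 10 members were 2-fold lower at day 5, against 25.8% of 21563 genes. They were Jarid2 (-1.75), Ezh1 (-1.65), Eed (-1.55), Suz12 (-1.34), Mtf2 (-1.19), Rbbp7 (-1.17) and Phf19 (-1.08). The Phf19 call was lost with a pseudocount of 1 and with either scaling, which left 6. With the 75th percentile and the median of ratios, 23.6% and 23.8% of genes were called lower. Aebp2 was at -0.78 and Rbbp4 at 0.08, and Ezh2 was highest at 0.69, above 76.5% of genes. No member was called higher, against 18.3% of genes, and the member median of -1.18 compares with -0.20 for all genes. Set against CJ7 ESCs, across lines, 5 members were called lower and none higher, beside 30.2% and 23% of genes. Rbbp7 (-0.60) and Ezh1 (-0.78) were then within 2-fold, and Eed was lowest at -2.19.

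The mutants gave other values. In Eednull 4 of 10 members were 2-fold lower at day 5, against 24.8% of 24638 genes: Eed (-1.87), Phf19 (-1.24), Jarid2 (-1.12) and Suz12 (-1.02). None was called higher, against 18.4%, and the member median was -0.58 beside -0.08 for all genes. In Suz12delta none was called lower, against 12.6% of 22681 genes, and 2 were called higher, Rbbp7 (1.35) and Ezh2 (1.002), against 26.9%. The member median there was 0.35 and that of all genes 0.43. The scaling decided the direction of several of these values. By the median of ratios the member median was -0.12, beside -0.03 over all genes, and Ezh1, Rbbp4, Aebp2 and Mtf2 went from above 0 to below. No member was then called, where 16.1% of genes were called higher and 18.5% lower. Eed at -0.24 was the lowest of the Suz12delta ratios. The Suz12delta values start from the ESC library with the highest fibroblast markers and the lowest proliferation genes, and fibroblast markers were lower at day 5 for 12 of 12 genes in E14 and in Suz12delta and for 9 of 12 in Eednull. Whether the lines differ in their change could not be tested with 1 library at each point.

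**Figure D4:**
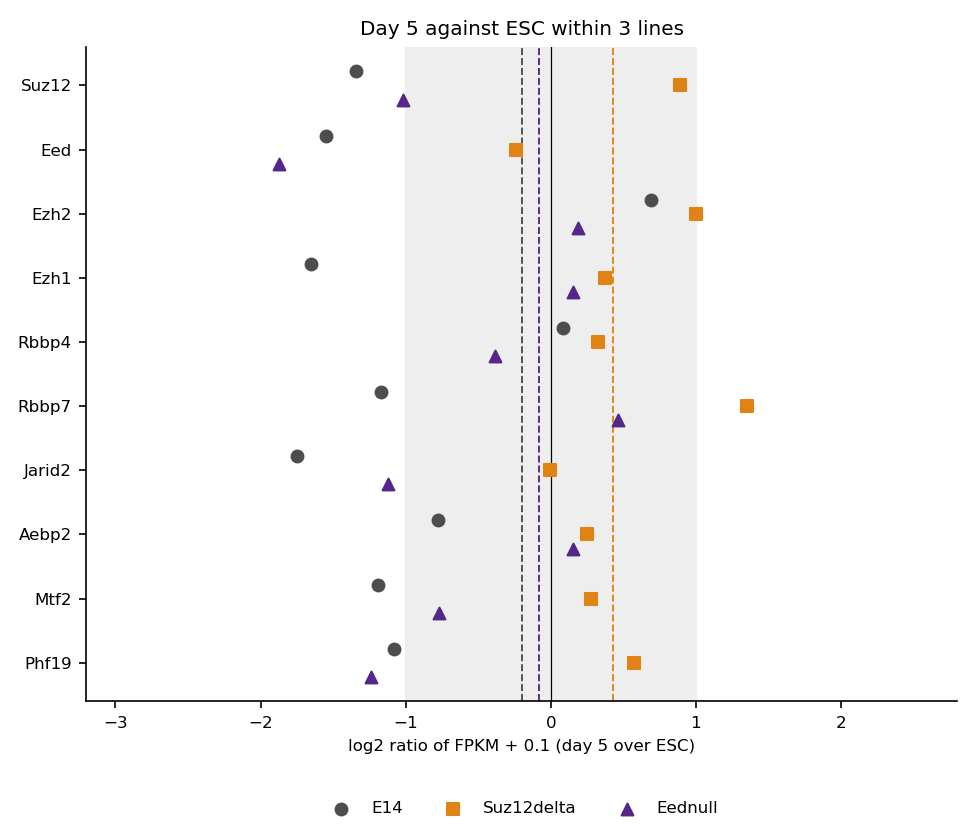
Log2 ratio of FPKM + 0.1 at day 5 over ESCs of the same line for the 10 members. Each symbol is 1 line, the grey band is within 2-fold, and dashed lines in the same colours are the medians of all genes tested. In E14 7 members lay left of the band and Ezh2 lay highest at 0.69, in Eednull 4 lay left of it, and in Suz12delta none did.

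Other genes of the H3K27 pathway were read from a list of 7: the accessory factors Phf1, Epop (E130012A19Rik in the table), Lcor and Lcorl, the inhibitor Ezhip (AU022751), and the demethylases Kdm6a and Kdm6b. Ezhip had 2 overlapping rows whose reads could not be told apart and was left out. At day 5 against ESCs 1 of the 6 others was 2-fold higher and 1 lower in E14, 3 were higher and none lower in Suz12delta, and 2 were higher and 1 lower in Eednull. Over all genes the shares called higher and lower were 18.3% and 25.8% in E14, 26.9% and 12.6% in Suz12delta, and 18.4% and 24.8% in Eednull. Lcor, whose locus also encodes a PRC2.1 partner, was at 2.23, 2.72, 1.92 and 1.93 FPKM in E14, CJ7, Suz12delta and Eednull ESCs and at 10.97, 13.7, 8.58 and 7.55 FPKM in E14, Suz12GT, Suz12delta and Eednull at day 5. All day 5 libraries were above all ESC libraries for Lcor, as they were for 12.4% of 27963 genes. Its log2 ratios were 2.25, 2.1 and 1.91 in E14, Suz12delta and Eednull. Epop, a PRC2.1 subunit of ESCs, was at 19.2 FPKM in E14, 22.0 FPKM in CJ7, 22.7 FPKM in Eednull and 8.88 FPKM in Suz12delta ESCs, and its day 5 ratio was -1.72 in E14, -2.42 in Eednull and -0.11 in Suz12delta. Kdm6b, which removes the mark, was at 0.89, 1.04 and 1.02 in E14, Suz12delta and Eednull, and Kdm6a at -0.67, 0.74 and -0.16. Phf1, a Polycomb-like protein related to MTF2, was within 2-fold at -0.14, 0.47 and 0.68, and Lcorl was at 0.66, 1.23 and 0.51. For Polycomb Repressive Complex 1, which binds the mark, 7 of 19 genes were 2-fold higher and 4 lower in E14 at day 5, 8 higher and 1 lower in Suz12delta, and 6 higher and 2 lower in Eednull, to be read against the same shares of all genes (18.3% and 25.8%, 26.9% and 12.6%, and 18.4% and 24.8%).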

How the data were processed

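RNA was extracted with Trizol and sequenced on Illumina instruments, with 1 library for each of 8 conditions. FPKM is the unit of the deposited table, which holds 1 value for each gene and library. Per the labels and methods, the authors aligned reads with Bowtie 0.12.7 through TopHat 1.3.2 and estimated FPKM with Cufflinks 1.2.1 and its Cuffdiff program, using Ensembl gene models on NCBI build 37. Sequence bias and multiply mapped reads were corrected for. No counts were used here, and read depth is unknown. Each other library was compared with E14 ESCs over the 1659 to 2121 genes above 0 and under 0.2 FPKM in both. No more than 1.26% of these had the commonest ratio to E14 ESCs.

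The 8 columns were matched to conditions by name. Values were used without rescaling. Log2 ratios were taken of FPKM + 0.1 wherever either library reached 0.1 FPKM, and 2-fold was counted as a call. Ratios of members within a library used FPKM alone. With 1 library per condition no test was run and no p-value or interval is given.

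The members and gene lists were chosen with earlier results of these data known. The text names all 10 members, the list of other H3K27 genes, and the 5 genes most like Ezh2 and Ezh1. The lists of proliferation (14 genes), pluripotency (8), neuron and motor neuron (10 in the table, Map2 was not found), fibroblast (12) and Polycomb Repressive Complex 1 (19) genes served as checks. Gene positions are from GENCODE vM1 on NCBI build 37, and promoter windows from RefSeq on GRCm38.p6. The loci deposited with the FPKM values have another start or end for Eed, Rbbp4, Rbbp7, Jarid2, Mtf2 and Phf19. That of Rbbp7 runs to 159267386, beyond the end of 159217024 given here. Transcripts were compared by shared 30-base stretches.

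Alternatives were a pseudocount of 1 or of 0.01, no minimum or one of 1 FPKM, a 1.5-fold limit, and CJ7 in place of E14 ESCs. Libraries were also scaled to the same 75th percentile and by the median of ratios, using the 17842 genes that no library lists at 0. CJ7 as day 0 of the wild-type comparison was added after the data were seen. Python 3.11.15, NumPy 2.4.6, pandas 2.3.3 and Matplotlib 3.10.9 were used.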

Additional observations from a re-analysis of the deposited data

Results flagged for a closer look

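Rbbp7 was past 2-fold in opposite directions at day 5 against ESCs in 2 lines. Its log2 ratio was -1.17 in E14 and 1.35 in Suz12delta, so that the ratios differed by 2.52. In Eednull it was 0.46. The difference was not tested, since each value comes from 1 library at each stage. With the libraries scaled by the median of ratios the values were -1.05 in E14 and 0.88 in Suz12delta, which is within 2-fold.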

How the results depend on the processing

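No paired analysis was possible because each condition had 1 library and the labels give no replicate numbers. Depth limits the low members most, above all Phf19, and the wild-type spread is known only from E14 and CJ7 ESCs, which differ in line and strain and of which only CJ7 was given a batch. The values that answer a comparison, log2 values and counts of members together, were recomputed under each alternative. Of these 305 differed by no more than 1.5-fold with no change of sign, 22 differed by more and 7 log2 values changed sign. The lowest member value was 0.453 FPKM, so using no minimum could not alter any member value. The 305 thus include values that were fixed in advance. The median member ratio at day 5 against ESCs in Suz12delta was -0.031 with 75th percentile scaling and -0.12 with the median of ratios. The proliferation median in Eednull against E14 ESCs, -0.074 from the deposited values, was 0.091 and 0.033 with these scalings and 0.066 against CJ7. With a 1.5-fold limit 8 members were called in Suz12delta ESCs, 4 in Eednull ESCs and 2 in CJ7 ESCs against E14, and 1, 4 and 3 in Suz12GT, Suz12delta and Eednull at day 5. The share of all genes called was not computed for this limit or for the other pseudocounts. Such counts therefore have no background and cannot be read as a result about the members. With a pseudocount of 1 no member was called in Eednull ESCs or Eednull day 5 cells against E14 (0 each), 1 was called at day 5 against ESCs in Suz12delta and 2 in Eednull. With a pseudocount of 0.01, 2 were called in Eednull ESCs, since Ezh1 passed the limit, and with CJ7 as the wild-type ESC 0 were. Median of ratios scaling left 1 call in Suz12delta against E14 at day 5, and either scaling left 0 at day 5 against ESCs in Suz12delta. With CJ7 as day 0 the median of the other H3K27 genes was 1.06 in E14. Jarid2 over Mtf2 alone, in place of the full PRC2.2 to PRC2.1 balance, gave log2 values of -1.17, -2.02, -1.16 and -1.12 in E14, CJ7, Suz12delta and Eednull ESCs and -1.74, -1.37, -1.44 and -1.47 in E14, Suz12GT, Suz12delta and Eednull at day 5. With Phf1 added to the PRC2.1 sum, the log2 balance in Suz12delta ESCs was -0.065, against 0.041. There were 15 changes of sign among the ratios of single members. Aebp2 in Suz12delta against E14 ESCs was 0.19 with 75th percentile scaling and 0.17 with the median of ratios, and Eed in Eednull against E14 at day 5 was -0.0062 with the latter. Against CJ7, Eed in Eednull ESCs was -0.26, Ezh2 was -0.099 and Rbbp4 was -0.29, and Rbbp4 in E14 day 5 cells was -0.33. At day 5 against ESCs in Suz12delta, Ezh1 was -0.0064, Rbbp4 -0.056, Aebp2 -0.13 and Mtf2 -0.11 with 75th percentile scaling, and Ezh1 was -0.091, Rbbp4 -0.14, Aebp2 -0.21 and Mtf2 -0.19 with the median of ratios. A 1 FPKM minimum and no minimum altered no call of a member. Where the construction of an alternative does not show the cause, the cause was not tested.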
